A study of Canis lupus familiaris with 6 samples.

Results

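The expression of 9 tight junction genes was examined in CPEK cells, a canine line of wild-type epidermal keratinocytes. The genes were CLDN1, CLDN4, CLDN7 and CLDN12, which encode claudins, OCLN (occludin), F11R (junctional adhesion molecule A), TJP1 and TJP3 (zonula occludens proteins ZO-1 and ZO-3) and CGN (cingulin). Their rows were found by symbol in a table of 35993 genes. RNA-Seq was carried out on 3 libraries of cells exposed directly for 30 s to cold atmospheric microwave plasma, an argon plasma lit by microwaves (dCAMP), and on 3 libraries of cells exposed to the gas without plasma (gas). In both groups the cells stayed for 15 min after exposure, received fresh medium containing fetal bovine serum, and were collected 24 h later, so that a single exposure time and a single collection time were sampled. The comparison of dCAMP with gas asked whether gene expression differed after plasma exposure. The study used this line in separate scratch assays of wound closure, but its description of the RNA-Seq cells names no scratch.

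Tight junctions seal the space between neighbouring epithelial cells. Claudins span the membrane and pair across the gap, where their types set which ions and molecules can pass; occludin and junctional adhesion molecule A are further membrane proteins of the belt. ZO proteins bind the claudin tails on the inner side, and cingulin ties the ZO proteins to actin and to regulators of RhoA. In epidermis the sealed belt lies in the granular layer, whereas CLDN1 is also made in the layers below and is needed for the skin barrier to water loss.

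The libraries held between 43084921 and 54082634 counts on genes. All 9 tight junction genes passed the filter on low counts, as did 14708 genes in total. The gas libraries were not equally distant from the dCAMP libraries. The median absolute log2 ratio to the dCAMP mean over the tested genes was 0.479 in gas library 1, 0.286 in gas library 2 and 0.131 in gas library 3, against 0.054, 0.063 and 0.054 in the 3 dCAMP libraries. The first principal component held 71.2% of the variance between the 6 libraries. The ratio also depended on transcript length in part of the gas group: per doubling of length it was lower by 0.12 on the log2 scale in gas library 1 and by 0.088 in gas library 2, and its slope was -0.011 in gas library 3. These differences within the gas group reached most of the genes described here. Values from fits with 1 library left out or with a correction for transcript length are given below. The cause of the differences and their part in the results were not tested beyond these fits. No label gives an extraction or sequencing batch, and the labels do not say whether the libraries of a group came from separate cultures; the study's methods speak of independent experiments for its data in general, without naming the RNA-Seq libraries. If the libraries are not from separate cultures, the p-values measure the spread between these samples only.

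The labelled cell type was compared with its markers. All 9 keratinocyte markers were tested. KRT5 had a mean of 9589 FPKM (fragments scaled to transcript length and library depth) over the 6 libraries, KRT14 had 9009 FPKM and KRT6A, a keratin of activated keratinocytes, had 1733 FPKM. Of the markers of differentiated keratinocytes, IVL (involucrin) had 735 FPKM and SPINK5 had 321 FPKM, whereas KRT10 had 12.5 FPKM and KRT1 was at 0 in all 6 libraries. TP63, the factor that keeps keratinocytes in their lineage, had 42.9 FPKM. Among markers of other cell types, PDGFRB, LUM and DCN of fibroblasts, TYR and DCT of melanocytes, PECAM1 of endothelium, and PTPRC and CD3E of leukocytes were at 0 in all 6 libraries. Other genes of these lists were measured at low levels, the most abundant being COL3A1 of fibroblasts with 0.615 FPKM, MITF of melanocytes with 1.39 FPKM, VWF of endothelium with 1.43 FPKM and CD68 of leukocytes with 0.541 FPKM. In bulk RNA, fewer cells of a type and less RNA per cell cannot be told apart.

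Levels of different genes were compared in FPKM, which is per length. F11R had the highest level of the 9 genes, with a mean of 61.0 ± 8.06 FPKM (SD, n = 6 libraries) and a range from 55.6 to 76.4 FPKM, which placed it above 91.5% of the tested genes. TJP1 followed with 13.3 ± 0.963 FPKM, CLDN4 with 11.8 ± 2.70 FPKM, CLDN1 with 11.7 ± 3.89 FPKM, OCLN with 10.0 ± 0.670 FPKM and CGN with 9.36 ± 1.03 FPKM. CLDN12 had 7.25 ± 2.55 FPKM, TJP3 had 4.98 ± 0.894 FPKM and CLDN7 had 1.33 ± 0.278 FPKM. Between neighbours in this order the ranges of the 6 libraries were apart only from F11R to TJP1 and from TJP3 to CLDN7. From TJP1 to TJP3, no neighbours therefore differed beyond the spread of the libraries. The ends of this stretch did differ, with TJP1 between 11.9 and 14.2 FPKM and TJP3 between 3.97 and 6.49 FPKM. CLDN7 was above 26.2% of the tested genes, and it had the fewest counts of the 9, with 49 to 78 per library.

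**Figure D1:**
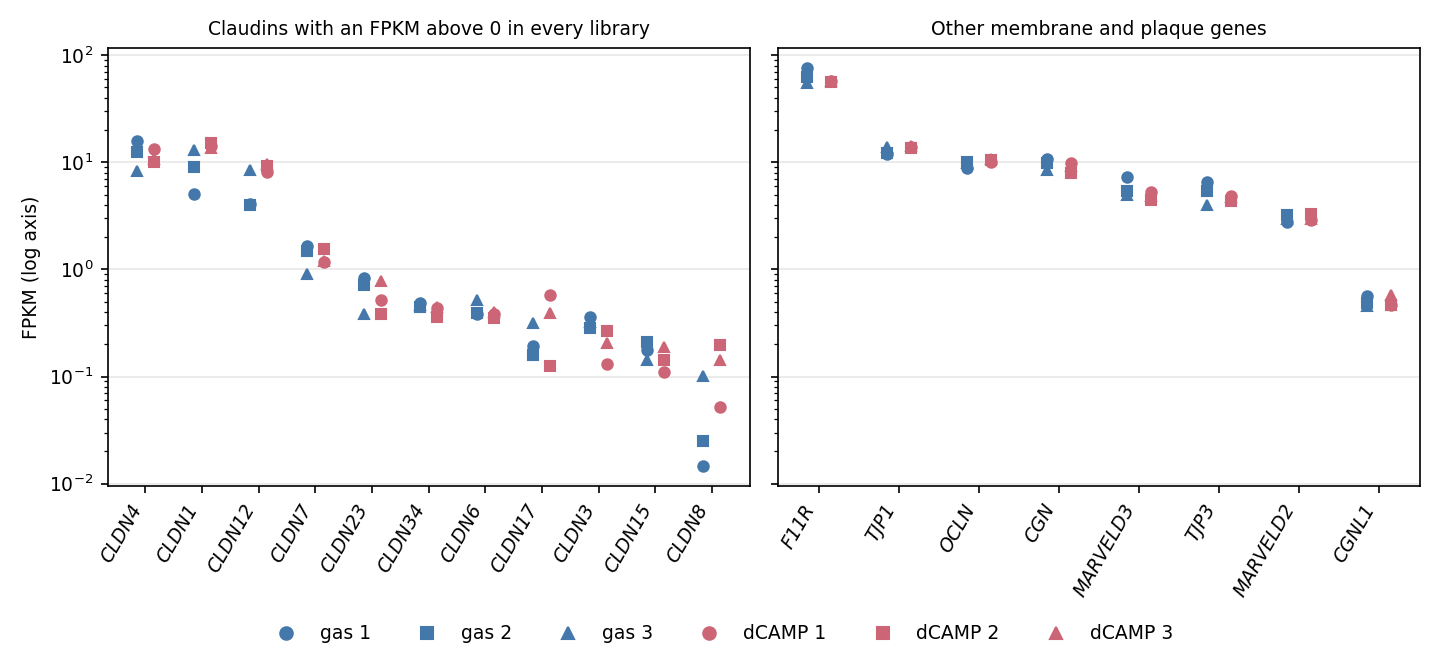
Level in FPKM on a log axis of the claudins above 0 in every library (left) and of other membrane and plaque genes (right), with 1 point per library, gas libraries in blue and dCAMP libraries in red, and a marker shape for each replicate number. F11R, with a mean of 61.0 FPKM, tops the 9 tight junction genes, and CLDN7, with 1.33 FPKM, lies between the 3 abundant claudins and the rest.

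The abundant claudins of CPEK cells were few. The gene table holds 24 claudins, of which 16 had a count in at least 1 library, 12 passed the filter on low counts and 8 (CLDN2, CLDN10, CLDN14, CLDN18, CLDN19, CLDN22, CLDN24 and CLDN25) were at 0 in every library. A count of 0 allows up to 3 counts, or between 0.0566 and 0.07 CPM (counts scaled to library depth but not to length) in these libraries, and this limit covers counting error only. CLDN2 forms channels for cations in leaky epithelia, and CLDN10 and CLDN19 are best known from the kidney. Below CLDN7, the highest claudin was CLDN23 with a mean of 0.604 FPKM, and its range did not overlap with that of CLDN7. CLDN34 had 0.440 FPKM, CLDN6 had 0.406 FPKM, CLDN17 had 0.293 FPKM, CLDN3 had 0.262 FPKM, CLDN15 had 0.162 FPKM, CLDN8 had 0.0887 FPKM and CLDN20 had 0.0412 FPKM. CLDN5, the main claudin of blood vessel walls, had 1 count in all libraries together.

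CLDN1, CLDN4, CLDN7 and CLDN12 together made up between 91.4% and 94.9% of the summed claudin FPKM of each library. The sum over all claudins was 29.1, 29.4 and 33.1 FPKM in gas libraries 1, 2 and 3 and 39.4, 37.8 and 38.0 FPKM in dCAMP libraries 1, 2 and 3. The order among the abundant claudins was not the same in all libraries. CLDN4 made up 54.6%, 42.8% and 25.1% of the sum with gas and 34.1%, 26.6% and 28.3% with dCAMP. CLDN1 made up 17.2%, 30.7% and 39.7% with gas and 36.4%, 39.8% and 36.0% with dCAMP. CLDN4 was thus the leading claudin in gas libraries 1 and 2 and CLDN1 in the other 4 libraries. The FPKM ratio of CLDN1 to CLDN4 was 0.316, 0.716 and 1.58 with gas and 1.07, 1.49 and 1.27 with dCAMP, so that the gas values lay on both sides of the dCAMP values. CLDN1 lay above CLDN12 in 6 of 6 libraries. The share of CLDN12 was 13.9%, 13.7% and 25.4% with gas and 20.6%, 24.5% and 25.4% with dCAMP, and that of CLDN7 lay between 2.76% and 5.68%.

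**Figure D2:**
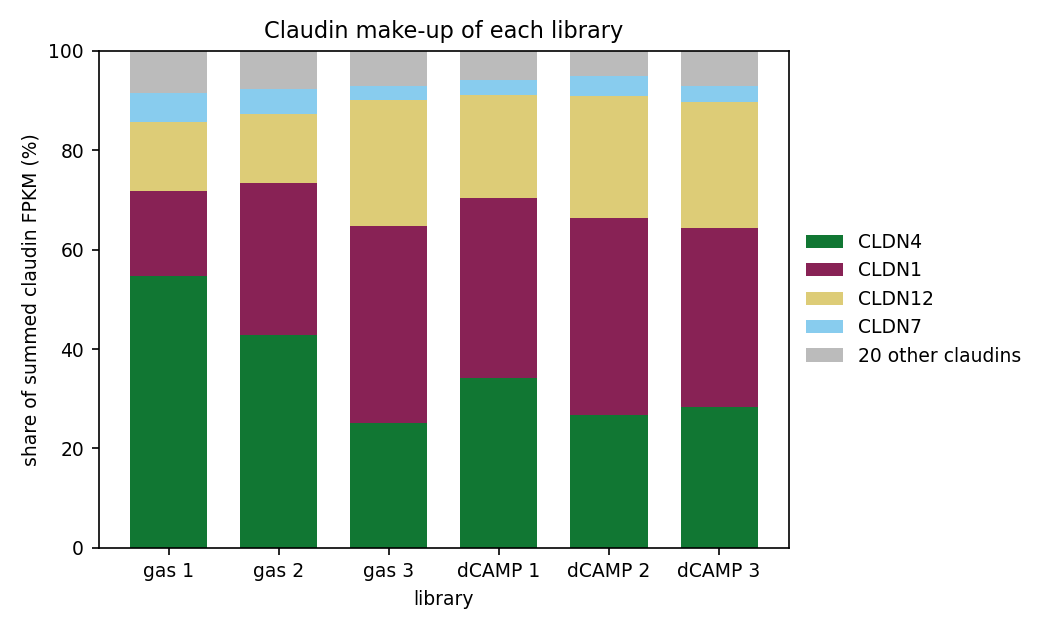
Share of CLDN4, CLDN1, CLDN12, CLDN7 and the 20 other claudins (grey) in the summed claudin FPKM of each library, in percent, as stacked bars with 1 bar per library. CLDN4 takes 54.6% in gas library 1 and 25.1% in gas library 3, where CLDN1 takes 17.2% and 39.7%.

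When dCAMP was compared with gas, none of the 9 tight junction genes passed the test (edgeR, quasi-likelihood; p adjusted after Benjamini and Hochberg over the 14708 genes), with adjusted p from 0.255 to 0.928. The background has to be read beside this count: 0% of all tested genes passed at an adjusted p under 0.05, and the lowest adjusted p of any gene was 0.136. At an unadjusted p under 0.05, 3040 genes passed (20.7% of those tested; 6.81% higher and 13.9% lower with dCAMP), and 0 of the 9 tight junction genes were among them. A difference of at least 2-fold, again at an unadjusted p under 0.05, was seen in 1.09% of the genes and in 0 of the 9. The median log2 fold change of the 9 genes (dCAMP over gas) was -0.04, with values from -0.19 to 0.71 and 4 above and 5 below 0, against a median of 0.03 over all tested genes. The values in CPM of 1 of the 9, CLDN1, did not overlap between the groups, and this was the case for 39.9% of all tested genes. Other tools called more genes. DESeq2 called 301 genes, 1.48% of the 20284 genes with a count, and 0 of the 9. With limma's voom and sample quality weights, 60.8% of the genes and 5 of the 9 were called (CLDN1, CLDN12, F11R, TJP1 and TJP3). Without gas library 3, edgeR called 33.1% of the genes and 3 of the 9 (CLDN1, CLDN12 and F11R).

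**Figure D3:**
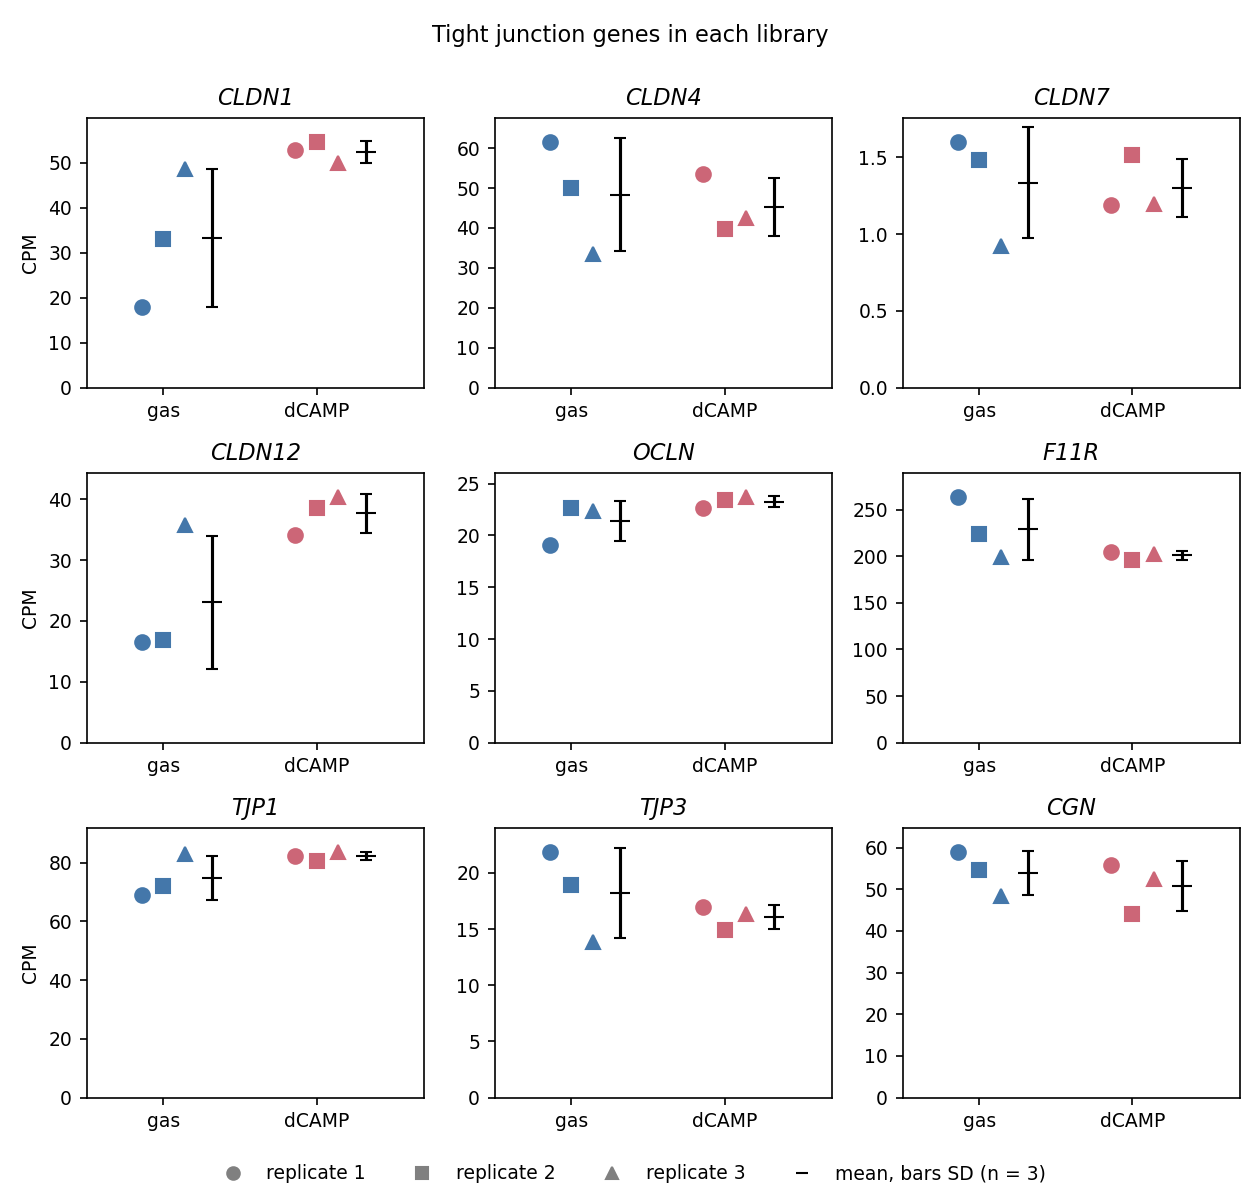
Level of each tight junction gene in CPM in the 3 gas and 3 dCAMP libraries, with 1 panel per gene, a linear axis starting at 0, 1 point per library, and the mean with SD (n = 3). The dCAMP points of CLDN1 (49.8 to 54.5 CPM) all lie above the gas points (17.9 to 48.6 CPM), and the groups overlap in the other 8 panels.

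**Figure D4:**
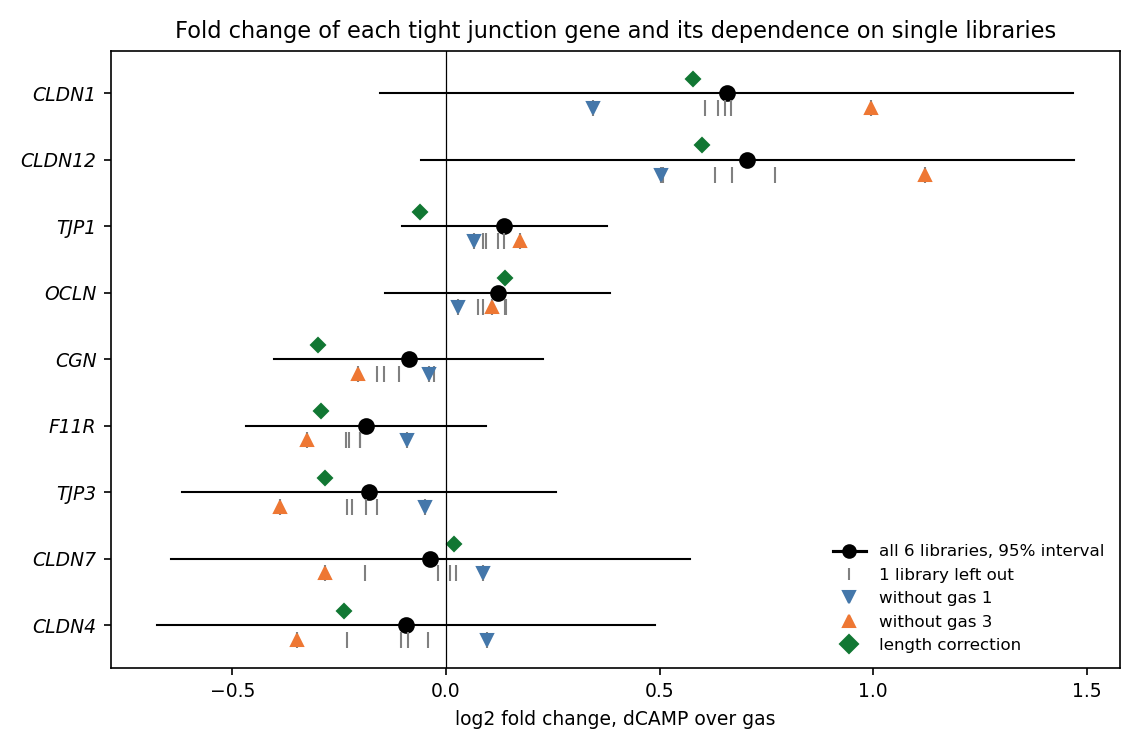
Log2 fold change of dCAMP over gas for each tight junction gene (black points) with its 95% interval (lines) from the edgeR fit, the values with 1 library left out (grey ticks, with triangles for gas libraries 1 and 3) and the value after length correction (diamonds). All 9 intervals include 0, and CLDN12 (0.71) and CLDN1 (0.66) have the highest estimates.

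Among the claudins, CLDN1 (gene 608207; CanFam3.1 chr34:22303058-22319101, with 1 transcript of 3209 bases) was measured at 17.9, 33.0 and 48.6 CPM in gas libraries 1, 2 and 3 and at 52.7, 54.5 and 49.8 CPM in dCAMP libraries 1, 2 and 3. Gas library 1 was lowest and gas library 3 lay just under the lowest dCAMP library, so that the groups did not overlap. The means were 33.2 ± 15.4 CPM with gas and 52.3 ± 2.38 CPM with dCAMP (SD, n = 3), a log2 fold change of 0.66 (SE 0.34, 95% interval -0.15 to 1.47, edgeR adjusted p = 0.279). As a fold this was 1.58, with an interval from 0.899 to 2.77. Leaving out gas library 1 gave 0.34, and leaving out gas library 3 gave 0.99 with an edgeR adjusted p of 0.037.

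CLDN12, a claudin without the tail motif by which other claudins bind ZO proteins, is encoded at chr14:16286030-16296649 (gene 608397, 1 transcript of 3678 bases). It was measured at 16.5, 16.9 and 35.7 CPM with gas and at 34.2, 38.5 and 40.3 CPM with dCAMP. Gas libraries 1 and 2 lay below every dCAMP library, whereas gas library 3 lay among the dCAMP values. The means were 23.1 ± 10.96 and 37.7 ± 3.17 CPM, a log2 fold change of 0.71 (SE 0.32, 95% interval -0.06 to 1.47, edgeR adjusted p = 0.255). Leaving out gas library 1 gave 0.50, and leaving out gas library 3 gave 1.12 (edgeR adjusted p = 0.0203). The gene overlaps CDK14, which had 42 to 122 counts per library against 766 to 1895 for CLDN12, and how reads in the overlap were assigned is not given in the sources used here.

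CLDN4, an inducible claudin that tightens the paracellular seal (gene 100856416; chr6:6492706-6506750, 1 transcript of 3480 bases), was measured at 61.5, 50.0 and 33.3 CPM with gas and at 53.6, 39.6 and 42.6 CPM with dCAMP. The gas libraries held both the highest and the lowest value, in the reverse of their order for CLDN1 and CLDN12. The means were 48.3 ± 14.2 and 45.3 ± 7.34 CPM, and the log2 fold change of -0.09 had a 95% interval from -0.68 to 0.49 (edgeR adjusted p = 0.804), which covers folds from 0.626 to 1.40. Without gas library 1 the value was 0.10.

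CLDN7 (gene 489466; chr5:32223985-32225795, 1 transcript of 861 bases) was measured at 1.60, 1.48 and 0.924 CPM with gas and at 1.19, 1.52 and 1.20 CPM with dCAMP. Gas library 3 was lowest, as for CLDN4, and the groups overlapped. The means were 1.33 ± 0.361 and 1.30 ± 0.188 CPM, with a log2 fold change of -0.04 (95% interval -0.64 to 0.57, edgeR adjusted p = 0.928) that was 0.02 after correction for transcript length.

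Of the other membrane proteins, OCLN (gene 403844; chr2:54500299-54545430, 1 transcript of 1957 bases) was measured at 19.1, 22.7 and 22.3 CPM with gas and at 22.6, 23.4 and 23.7 CPM with dCAMP. Apart from gas library 1, the values lay between 22.3 and 23.7 CPM. The log2 fold change was 0.12 (SE 0.11, 95% interval -0.14 to 0.38, edgeR adjusted p = 0.461), which covers folds from 0.906 to 1.31. The value was 0.03 when gas library 1 was left out.

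F11R, an immunoglobulin-type adhesion molecule of the junction (gene 478974; chr38:21433819-21456722, 1 transcript of 3104 bases), was measured at 263.5, 223.9 and 198.8 CPM with gas and at 204.9, 195.7 and 202.3 CPM with dCAMP. Gas libraries 1 and 2 were above all dCAMP libraries and gas library 3 was among them. The log2 fold change was -0.19 (SE 0.12, 95% interval -0.47 to 0.09, edgeR adjusted p = 0.329). Leaving out gas library 1 gave -0.09, and leaving out gas library 3 gave -0.33 (edgeR adjusted p = 0.0478).

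Among the scaffold proteins, TJP1 (gene 403752; chr3:38997122-39076617, 1 transcript of 5195 bases) was measured at 68.9, 72.2 and 83.0 CPM with gas and at 82.2, 80.7 and 83.6 CPM with dCAMP. Gas libraries 1 and 2 were below the dCAMP values, and gas library 3 was among them. The means were 74.7 ± 7.39 and 82.2 ± 1.44 CPM, with a log2 fold change of 0.14 (SE 0.10, 95% interval -0.10 to 0.38, edgeR adjusted p = 0.38). Leaving out gas library 1 gave 0.07, and leaving out gas library 3 gave 0.17. The direction was not stable to the length dependence described above, since the value was -0.06 after correction for transcript length.

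TJP3 (gene 403852; chr20:55720632-55746776, 1 transcript of 3031 bases) was measured at 21.9, 18.9 and 13.9 CPM with gas and at 16.9, 14.9 and 16.4 CPM with dCAMP. The gas values lay on both sides of the dCAMP values. The log2 fold change was -0.18 (SE 0.18, 95% interval -0.62 to 0.26, edgeR adjusted p = 0.506). Leaving out gas library 1 gave -0.05, and leaving out gas library 3 gave -0.39 (edgeR adjusted p = 0.0557). The gene overlaps LOC102152046, a long non-coding RNA with 17 to 41 counts per library.

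The balance of TJP1 and TJP3 was also compared per length. The ratio of TJP1 to TJP3 in FPKM was 1.84, 2.23 and 3.50 with gas and 2.83, 3.16 and 2.98 with dCAMP, so that gas library 3 was above and the other gas libraries were below all dCAMP libraries.

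CGN (gene 483198; chr17:60553423-60578804) was measured at 58.9, 54.6 and 48.4 CPM with gas and at 55.9, 44.1 and 52.4 CPM with dCAMP. The groups overlapped over most of their ranges, and the log2 fold change was -0.09 (SE 0.13, 95% interval -0.40 to 0.23, edgeR adjusted p = 0.657). Leaving out gas library 1 gave -0.04, and leaving out gas library 3 gave -0.21. CGN was the one gene of the 9 with more than 1 transcript in the transcript table, where 5 transcripts of 4848 to 5124 bases shared its counts. The curated RefSeq transcript, of 4848 bases, took 71.4%, 78.4% and 52.9% of the counts with gas and 42.5%, 66.1% and 47.0% with dCAMP, with means of 67.6 ± 13.2% and 51.9 ± 12.5% that overlapped in their libraries. The predicted variant X2 took 4.36%, 9.50% and 5.76% with gas and 33.1%, 13.4% and 19.1% with dCAMP, without overlap. The predicted variant X1 had 469, 0 and 385 counts with gas and 0, 224 and 552 with dCAMP, which shows how far the estimated split moved between libraries of 1 group. Transcript shares were not tested.

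The log2 ratio of each gas library to the dCAMP mean had both signs among the genes. In gas library 1 it was -1.54 for CLDN1, -1.18 for CLDN12, -0.28 for OCLN and -0.25 for TJP1. In the same library it was 0.46 for CLDN4, 0.45 for TJP3, 0.39 for F11R, 0.30 for CLDN7 and 0.22 for CGN. In gas library 3 the ratio was -0.10 for CLDN1, -0.07 for CLDN12 and -0.06 for OCLN. The other 6 genes had the opposite sign there to that in gas library 1, with -0.43 for CLDN4, -0.47 for CLDN7 and -0.21 for TJP3, and with -0.06 for CGN, -0.01 for F11R and 0.02 for TJP1, close to the dCAMP mean. In 8 of the 9 genes gas library 2 lay between gas libraries 1 and 3, the exception being OCLN.

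**Figure D5:**
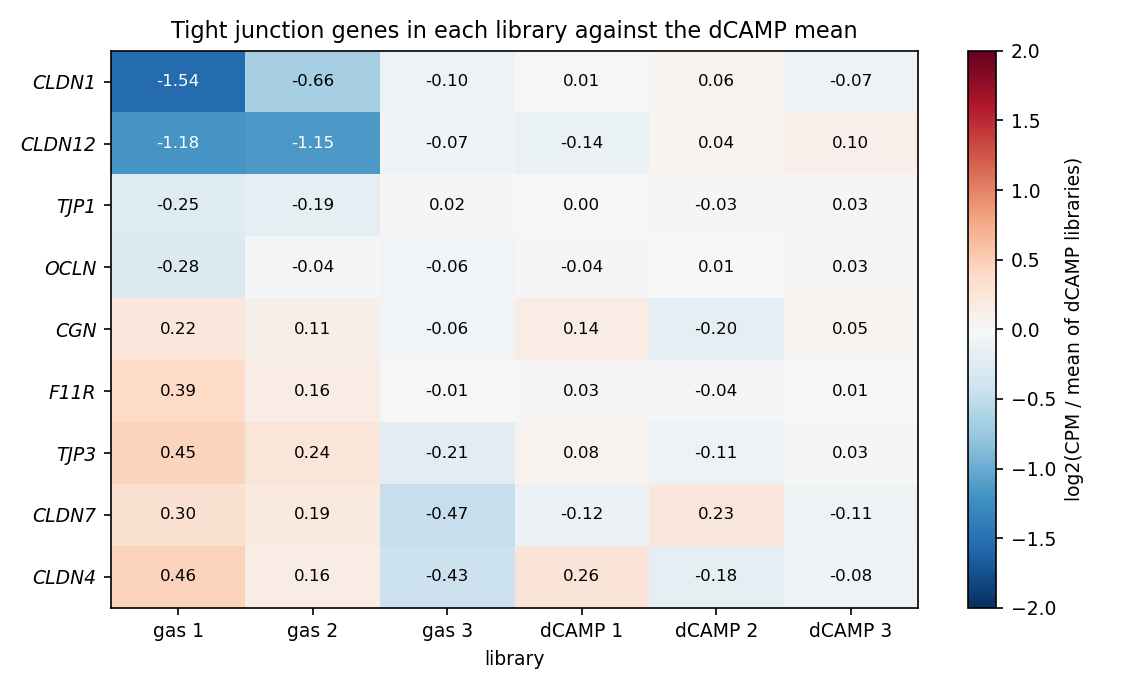
Log2 ratio of each library's CPM to the mean of the dCAMP libraries, with 1 row per tight junction gene, 1 column per library, the value printed in each cell, and colour from blue (below the mean) to red (above). Gas library 1 reaches -1.54 for CLDN1 and 0.46 for CLDN4.

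Markers of differentiated keratinocytes varied between the libraries of each group, and not all in the same order. IVL was measured at 1439, 916.8 and 636.6 CPM with gas and at 1206, 855.5 and 1082 CPM with dCAMP. CLDN4, F11R, TJP3 and CGN were each highest in library 1 and lowest in library 3 of the gas group, and highest in library 1 and lowest in library 2 of the dCAMP group, as were IVL and LOR (loricrin). The other 3 tested markers, KRT10, SPINK5 and DSC1, did not have this order: KRT10 was measured at 21.4, 34.3 and 33.2 CPM with gas and SPINK5 at 1087, 1255 and 1122 CPM, both lowest in gas library 1. The sum over the markers, most of it from IVL and SPINK5, was 2552, 2209 and 1793 CPM with gas and 2713, 2140 and 2458 CPM with dCAMP. This order was not particular to markers of differentiation. ITGB4 of the keratinocyte markers had it, at 4370, 3853 and 3393 CPM with gas and at 3460, 3250 and 3377 CPM with dCAMP. JUP of the adherens junction genes had it as well. No share of all tested genes with this order is given here. The order was noticed after the values were seen, and its part in the results was not tested. Of the 5 tested markers, SPINK5 alone had an unadjusted p under 0.05 by edgeR, beside 20.7% of all tested genes (log2 fold change 0.23, adjusted p = 0.240). Among the 18 alternatives this held with voom alone. After correction for transcript length the value of SPINK5 was 0.11. Markers of simple epithelium, a list of 4 keratins, were at 159.2, 140.0 and 115.9 CPM in sum with gas and at 106.4, 108.5 and 100.3 CPM with dCAMP. The highest of them was KRT7 with 22.1 FPKM, and 3 of the 4, KRT7, KRT8 and KRT18, were lower with dCAMP at an unadjusted p under 0.05, beside 13.9% of all tested genes (log2 fold changes of -0.56, -0.36 and -0.40, edgeR adjusted p = 0.221 each). DESeq2 gave KRT7 an adjusted p of 0.0427 over all genes with a count and of 0.0664 over genes counted in every library.

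The other genes of the junction were taken from lists of 93 genes, of which 71 were tested. At an unadjusted p under 0.05 by edgeR, 3 were higher and 7 lower with dCAMP, beside the 6.81% and 13.9% of all tested genes, and none had an adjusted p under 0.05. Their median log2 fold change was 0.01. These counts changed when single gas libraries were left out. Leaving out gas library 1 gave 5 higher and 4 lower, beside 20.6% of all genes in either direction in that fit. Leaving out gas library 3 gave 14 higher and 21 lower, beside 49.2% of all genes in either direction. Of these, 10 and 12 had an adjusted p under 0.05 by edgeR, beside 33.1% of all genes tested in that fit. Among the 20 other claudins, 8 were tested and 1 passed the unadjusted threshold, CLDN20, with 5, 7 and 0 counts with gas and 13, 18 and 13 with dCAMP (log2 fold change 1.61, SE 0.61, edgeR adjusted p = 0.232). CLDN3 had 19, 18 and 20 counts with gas and 7, 13 and 11 with dCAMP, without overlap between the groups (log2 fold change -0.61, edgeR adjusted p = 0.272).

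Of 12 other membrane proteins, 7 were tested and 0 passed the unadjusted threshold, beside 20.7% of all tested genes. CXADR, the adhesion molecule known as the coxsackievirus and adenovirus receptor, had the highest level, with a mean of 40.7 FPKM. It was measured at 37.7, 97.7 and 206.9 CPM with gas and at 219.2, 242.7 and 235.4 CPM with dCAMP, and its log2 fold change was 1.03 (SE 0.55, edgeR adjusted p = 0.291). The groups did not overlap in CPM, but in FPKM gas library 3 (49.99) lay above the dCAMP libraries (47.3 to 48.7), with means of 33.2 with gas and 48.2 with dCAMP. LSR, the receptor that marks corners where 3 cells meet, had 32.7 FPKM and a log2 fold change of -0.30 (edgeR adjusted p = 0.258). CRB3, a small polarity protein of the apical membrane, had 7.19 FPKM and a log2 fold change of -0.24.

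Of 23 other scaffold and polarity genes, 20 were tested, with 1 higher and 2 lower at the unadjusted threshold, beside 6.81% and 13.9% of all tested genes. PARD6B, a subunit of the polarity complex with atypical protein kinase C, was measured at 1.90, 3.32 and 7.33 CPM with gas and at 8.83, 9.35 and 9.45 CPM with dCAMP (log2 fold change 1.13, SE 0.45, edgeR adjusted p = 0.239). Leaving out gas library 1 gave 0.77, and leaving out gas library 3 gave 1.75 (edgeR adjusted p = 0.0203). PRKCI, the kinase of that complex, was measured at 88.3, 146.8 and 214.9 CPM with gas and at 225.8, 237.0 and 243.2 CPM with dCAMP (log2 fold change 0.65, edgeR adjusted p = 0.258). Both had groups without overlap and the same order of gas libraries as CLDN1. SYMPK (symplekin, a junction plaque and nuclear protein) was measured at 107.2, 96.9 and 82.5 CPM with gas and at 74.2, 71.2 and 70.1 CPM with dCAMP (log2 fold change -0.41, edgeR adjusted p = 0.221). TJAP1, a protein associated with tight junctions, had a log2 fold change of -0.39 (edgeR adjusted p = 0.240). YBX3, the ZO-1-associated nucleic acid binding protein, had the highest level of the list with 208 FPKM and a log2 fold change of 0.09.

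The 11 adherens junction genes were all tested, with 1 higher and 1 lower at the unadjusted threshold (6.81% and 13.9% of all tested genes). CTNNB1 (beta-catenin) was measured at 668.0, 707.2 and 773.7 CPM with gas and at 950.4, 897.4 and 958.4 CPM with dCAMP. The groups did not overlap, and the gap between them was wider than the range within either; the log2 fold change was 0.385 (SE 0.08, edgeR adjusted p = 0.221), and DESeq2 gave 0.37 with an adjusted p of 0.027 over all genes with a count and of 0.0613 over genes counted in every library. NECTIN1 had a log2 fold change of -0.29 (edgeR adjusted p = 0.240). JUP (plakoglobin) had the highest level with 323.0 FPKM and a log2 fold change of -0.18, and CTNNA1 (alpha-catenin) had 175.3 FPKM and a log2 fold change of -0.08.

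Of 10 junction signalling genes, all tested, 2 were lower at the unadjusted threshold, beside 13.9% of all tested genes. ARHGEF2 (GEF-H1), an activator of RhoA which cingulin holds at the junction, was measured at 36.0, 34.6 and 29.6 CPM with gas and at 24.7, 26.3 and 23.7 CPM with dCAMP (log2 fold change -0.42, SE 0.12, edgeR adjusted p = 0.221). ARHGEF18 (p114RhoGEF), another such activator, was measured at 24.4, 21.4 and 17.8 CPM with gas and at 16.3, 16.3 and 16.5 CPM with dCAMP (log2 fold change -0.37, SE 0.14, edgeR adjusted p = 0.229). ARHGEF11, the third activator of RhoA in the list, had a log2 fold change of -0.15 (edgeR adjusted p = 0.473). The highest values of the list were those of the RhoA-dependent kinases ROCK1 and ROCK2, with log2 fold changes of 0.87 and 0.84 (edgeR adjusted p = 0.306 and 0.329). ROCK1 was measured at 20.1, 46.8 and 93.0 CPM with gas and at 94.6, 99.1 and 98.5 CPM with dCAMP, so that gas library 3 lay close to the dCAMP libraries. The GTPases themselves had the highest levels of the list, with 316.1 FPKM for RHOA, 305.2 FPKM for CDC42 and 201.6 FPKM for RAC1, and log2 fold changes of 0.06, 0.10 and 0.17.

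The list of partners of CLDN7 and of matriptase held 6 genes, all tested, with 2 lower at the unadjusted threshold, again beside 13.9% of all tested genes. One of these was ST14 (matriptase, the protease that cleaves EPCAM), measured at 89.0, 79.0 and 67.3 CPM with gas and at 63.3, 61.8 and 62.7 CPM with dCAMP. Its groups did not overlap, and it had a log2 fold change of -0.33 (edgeR adjusted p = 0.229). The inhibitors of matriptase SPINT2 and SPINT1 had 205.0 and 59.7 FPKM, and log2 fold changes of -0.14 and -0.28. Of 11 transcription factors that act on junction genes, 9 were tested and 0 passed the unadjusted threshold, which 20.7% of all tested genes passed; SNAI2 had 73.6 FPKM, TP63 had 42.9 FPKM and GRHL3 had 37.3 FPKM, with log2 fold changes of -0.04, 0.18 and -0.02, and ZEB1 and ZEB2 were at 0 in every library.

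For each of the 9 genes, the gene with the nearest profile among the 71 tested genes of the other junction lists was sought by the Euclidean distance between centred log2 CPM values over the 6 libraries. F11R was nearest to AMOTL2 (distance 0.06), TJP1 to RAC1 (0.098), CGN to SNAI2 (0.114) and OCLN to YBX3 (0.139). CLDN1 and CLDN12 were both nearest to PALS1 (listed as MPP5; distances 0.132 and 0.525), a polarity scaffold measured at 14.2, 23.3 and 36.0 CPM with gas and at 39.5, 40.4 and 38.8 CPM with dCAMP. CLDN4 was nearest to SNAI1 (0.282), a repressor of epithelial genes measured at 5.40, 5.05 and 3.36 CPM with gas and at 5.42, 4.36 and 4.78 CPM with dCAMP. CLDN7 and TJP3 were both nearest to NECTIN4 (0.386 and 0.134), a nectin measured at 33.4, 30.7 and 22.6 CPM with gas and at 27.6, 25.9 and 26.5 CPM with dCAMP. These distances describe 6 libraries.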

How the data were processed

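The authors prepared stranded mRNA libraries, cleared the reads of adapters, of contaminant DNA and of PCR duplicates, mapped them to CanFam3.1 and assigned them to known transcripts. Per the submitters' processing notes, FastQC 0.11.7, Trimmomatic 0.38, HISAT2 2.1.0 and StringTie 2.1.3b were used. The annotation release and the strand setting are not given in the sources used here. The deposited read counts are unnormalized. The deposited FPKM are scaled to transcript length and depth. The 12 TPM columns were not used.

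Counts were analysed with edgeR 4.0.16 in R 4.3.3: TMM normalization, filterByExpr, prior count 2, and its quasi-likelihood test between both groups, adjusted after Benjamini and Hochberg over 14708 genes. CPM are counts scaled to the normalized library size. SE is the log2 fold change divided by the root of F. limma 3.58.1 and DESeq2 1.42.0 gave alternatives. The edgeR fits with and without length correction and replicate block, DESeq2 and voom were run on simulated data. There 200 of 14708 genes were changed 3-fold, with the same spread (dispersion 0.05) for every gene. Between 98% and 99.5% of them were recovered, with 3 to 31 false calls. The simulation held no differences within the gas group, no dependence on length and no replicate effect. It therefore cannot show how the fits handle these.

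The genes and lists were chosen with earlier results of these data known. Named were the 9 genes, every tested claudin, of each other list the 3 tested genes with the highest mean FPKM and up to 3 with an unadjusted p under 0.05 and the largest change, and nearest profiles. Of these, 2 genes are not reported here. Genes listed at 0, CLDN5, ARHGEF11, ROCK1, ROCK2, LOR, DSC1, FLG, ITGB4, COL17A1, COL1A2 and PMEL were named outside this rule, after their values were seen. Coordinates come from the deposited transcript table, in CanFam3.1. Protein and promoter sequences were not used here.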

Additional observations from a re-analysis of the deposited data

How the results depend on the processing

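The directions of CLDN1, CLDN12, OCLN, F11R, TJP3 and CGN held in all 18 alternatives. Genes with an adjusted p under 0.05 numbered 0 with edgeR, 301 with DESeq2 on all genes with a count, 161 with DESeq2 on genes counted in every library, 8944 with voom and sample quality weights and 3 with limma on log2(FPKM + 0.1). With 1 library left out they numbered 0 to 4953, with 1 without gas library 1 and 4953 without gas library 3. Tight junction genes with an adjusted p under 0.05 numbered 5 with voom, 0 to 3 with 1 library left out (3 without gas library 3) and 0 in the other 16 alternatives. At an unadjusted p under 0.05 there were 5 with voom (64.9% of all genes), 0 to 4 with 1 library left out (4 without gas library 3, beside 49.2% of all genes), and 1, CLDN12, beside 17.3% to 23.7% of all genes, with DESeq2 in both settings, upper-quartile factors, the replicate block, limma on both FPKM scales and the length correction with replicate block. The log2 fold change of CLDN4 ranged from -0.35 to 0.10 with 1 library left out, positive without gas library 1. That of CLDN7 ranged from -0.284 to 0.0861 and was 0.0198 with the length correction and 0.0393 with length correction and replicate block. That of TJP1 was -0.0614 with the length correction and -0.061 with the block as well. The median of the 9 genes ranged from -0.21 to 0.07 with 1 library left out. The causes of these moves were not tested.

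Same-numbered libraries of the 2 groups had weak correlations of their deviations, of 0.13, 0.024 and 0.048. The value of 0.13, for the libraries numbered 1, was the highest of all pairs. Gas library 3, however, correlated best with dCAMP library 2 (0.087). These values do not settle whether the numbers pair the libraries. With the replicate block the median of the 9 genes was -0.01, and 2775 genes in place of 3040 had an unadjusted p under 0.05. Of the 9 genes CLDN7 has the fewest counts, with 375 over the 6 libraries. In sum the other tested claudins outside the 9 have no more, although in gas library 3 CLDN34 had 72 counts and CLDN7 had 49. Whether low counts limited detection was not tested. The SE was 0.25 for CLDN7, 0.17 for CLDN34 and 0.61 for CLDN20, against 0.34 for the more abundant CLDN1.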

Other observations

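Markers of further cell types were measured at low levels. Of 8 fibroblast markers 4 were tested. The list summed to 7.02, 6.93 and 6.60 CPM in gas libraries 1, 2 and 3. In dCAMP libraries 1, 2 and 3 the sums were 7.10, 6.51 and 7.06 CPM. COL3A1 was the most abundant at 0.615 FPKM. COL1A1 had a log2 fold change of -0.68 (edgeR adjusted p = 0.238), whereas COL1A2 had 0.54 and COL3A1 had 0.16. Of the 4 tested, 2 were higher and 2 lower with dCAMP. Of 6 melanocyte markers 4 were tested, with MITF at 1.39 FPKM as the most abundant and summed levels of 7.19, 7.12 and 9.12 CPM with gas and 9.495, 8.865 and 11.4 CPM with dCAMP. MLANA had 4, 0 and 0 counts with gas and 13, 16 and 11 with dCAMP (log2 fold change 2.30, edgeR adjusted p = 0.221). PMEL went the other way, with 35, 24 and 39 counts with gas and 15, 13 and 27 with dCAMP (log2 fold change -0.62, edgeR adjusted p = 0.303). Of the 4 tested, 2 were higher and 2 lower with dCAMP. SOX10 had 63, 73 and 0 counts with gas and 0, 0 and 72 with dCAMP, so that the same gene was at 0 in libraries of both groups. Of 5 endothelial markers 3 were tested, with VWF at 1.43 FPKM as the most abundant, and the sum was 18.2, 18.4 and 15.7 CPM with gas and 23.1, 18.8 and 24.7 CPM with dCAMP; KDR and CDH5 had log2 fold changes of 0.45 and 0.69 (edgeR adjusted p = 0.224 and 0.237). Of 5 leukocyte markers 2 were tested, with CD68 at 0.541 FPKM as the most abundant and a sum between 1.42 and 3.03 CPM. The part of these markers in the results above was not tested.

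Of the 9 tested keratinocyte markers, 5 had an unadjusted p under 0.05 by edgeR, beside 20.7% of all tested genes, and none an adjusted p under 0.05 by edgeR. PERP, a p63 target at cell junctions, had a log2 fold change of 0.57 and ITGA6 one of 0.35, and SFN had -0.43, KRT14 -0.30 and KRT5 -0.21. DESeq2 gave PERP an adjusted p of 0.0498 over all genes with a count and of 0.0786 over genes counted in every library. ITGA6 was at 0.11 after correction for transcript length, with an unadjusted p of 0.201 by edgeR. The 4 that did not pass were TP63 (0.18), KRT6A (-0.10), ITGB4 (-0.20) and COL17A1 (-0.02).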
